A study of Homo sapiens with 16 samples.

Results

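Chromatin accessibility was compared between selected and ancestral MDA-MB-231 cells on stiff gel, which takes 8 of the study's 16 ATAC-seq samples, 4 per group. The regions compared were chosen by position alone: the 84791 places on chromosomes 1 to 22 where a peak of the selected list overlapped a peak of the ancestral list by at least 1 bp, of 161185 regions formed by merging all 4 peak lists of the study. Peaks listed for only 1 of the 2 groups were described separately. MDA-MB-231 is an established human breast adenocarcinoma line, wild type in the labels of both groups. Cells of both groups lay on polyacrylamide gel of 308 kPa coated with type I collagen, and the matching pair of groups on 1 kPa gel served for scaling and as a second comparison. Selection lasted 75 days, in steps of about 7 days, with 20000 cells moved each time. The protocol describes passage on soft and on stiff gel, and the series' design speaks of soft-selected cells. The labels do not say whether the cells labelled "selected on stiff" were passaged on soft gel and then moved, or passaged on stiff gel throughout, and they are called selected cells here.

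In ATAC-seq a transposase inserts adapters where DNA is free of nucleosomes, so active promoters and enhancers collect fragments. Cells read the stiffness of their substrate through integrins and focal adhesions that pull on it by way of the actin cytoskeleton, and this pull reaches genes through YAP and TAZ with TEAD factors and through MRTF with SRF. MDA-MB-231 is known as a mesenchymal line without oestrogen receptor, with vimentin and CD44 high and E-cadherin silent.

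Each group has 1 deposited peak list that stands for its 4 libraries. The lists held 120833 peaks for selected and 113458 for ancestral cells on chromosomes 1 to 22, with a median pileup, the number of fragments stacked at the summit, of 56 and 132. Read totals are unknown. Before ratios were taken, each pileup was divided by the median of its list over the regions present in all 4 lists, which was 107 for selected and 280 for ancestral cells. The ratio given throughout is log2 of selected over ancestral scaled pileup, and a region counts as higher or lower past a 2-fold ratio. Replicates cannot be seen apart in a single list, so no test was made: these are values of 2 lists, and intervals given beside them cover counting error only. At a site in bulk chromatin, more cells that are open and more opening per cell cannot be told apart. Marker peaks were sought within 1 kb of the gene start, or of either gene end where no start was at hand. Of the line's mesenchymal markers, 3 of 6 (VIM, ZEB1 and SNAI2) had a shared peak there. CD44, with a peak of 609 in selected cells, and AXL lay at skipped numbers, where a list leaves out a peak number. TWIST1 had no peak there. Of the markers of other cell types, CDH1, ESR1, the blood marker PTPRC and the neuronal markers RBFOX3 and NEUROD1 had no peak there. A shared peak was present at 3 of 5 epithelial markers (EPCAM, with a pileup of 249 in selected and 723 in ancestral cells, ESRP1 and GRHL2), at 4 of 5 luminal markers (PGR, GATA3, FOXA1 and TFF1), at 3 of 5 neuronal markers (GAD1 with 366 and 947, SNAP25 and SYT1) and at 1 of 5 blood markers, SPI1 (387 and 972). CD3D had a peak of 31 in selected cells alone, and CLDN4 and CD79A lay at skipped numbers. Peaks at markers of other types were thus present in both lists, and their part in the results was not tested. Either end was searched for SNAI2, EPCAM, ESRP1, GRHL2, TFF1, SPI1 and SNAP25, so their peaks need not lie at the gene start.

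The promoters below are those of the gene-list members with the 3 lowest and the 3 highest ratios among gene starts with a promoter sequence at hand. They are shown because gene starts had the fewest regions past 2-fold, and these 6 are examples of starts that differed. Members without such a sequence could lie further out, as OVOL1 and TFF1 did. The sequences, from RefSeq on GRCh38.p14, run 5′ to 3′ from 250 bases before to 50 after the gene start, and capitals mark matches to 6 motifs on either strand. The AP-1 motif, bound by FOS and JUN proteins, was searched as TGANTCA. The cyclic AMP response element (CRE) was searched as TGACGTCA. The site of TEAD factors was taken as GGAATG, and the GC box that SP factors bind was taken as GGGCGG. The CCAAT box was searched by the letters of its name, and the site of ETS factors as CCGGAAG.
The 3 lowest were TP63, a basal epithelial transcription factor (chr3:189631139-189631438, plus strand), TNS3, a tensin of adhesions (chr7:47582537-47582836, minus strand), and ELF3, an epithelial ETS factor (chr1:202010337-202010636, plus strand).
TP63: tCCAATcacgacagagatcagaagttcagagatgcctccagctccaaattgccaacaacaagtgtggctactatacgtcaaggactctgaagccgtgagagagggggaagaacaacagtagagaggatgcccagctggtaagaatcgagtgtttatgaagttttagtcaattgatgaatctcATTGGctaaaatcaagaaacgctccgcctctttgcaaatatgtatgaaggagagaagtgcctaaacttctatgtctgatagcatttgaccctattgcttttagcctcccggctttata
TNS3: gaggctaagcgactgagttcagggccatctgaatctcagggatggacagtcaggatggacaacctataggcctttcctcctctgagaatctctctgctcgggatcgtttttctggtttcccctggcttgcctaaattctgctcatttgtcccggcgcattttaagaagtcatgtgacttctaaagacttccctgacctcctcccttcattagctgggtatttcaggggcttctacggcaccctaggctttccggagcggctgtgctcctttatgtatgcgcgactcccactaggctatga
ELF3: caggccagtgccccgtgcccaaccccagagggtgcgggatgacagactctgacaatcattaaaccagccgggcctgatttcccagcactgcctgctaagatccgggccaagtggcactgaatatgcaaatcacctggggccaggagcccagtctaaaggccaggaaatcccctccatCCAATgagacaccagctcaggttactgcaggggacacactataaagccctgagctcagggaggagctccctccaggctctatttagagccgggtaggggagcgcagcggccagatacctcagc
The 3 highest were PRRX1, a mesenchymal homeobox factor (chr1:170663881-170664180, plus strand), PGR, the progesterone receptor (chr11:101129028-101129327, minus strand), and TRPC6, a calcium-permeable channel (chr11:101583958-101584257, minus strand).
PRRX1: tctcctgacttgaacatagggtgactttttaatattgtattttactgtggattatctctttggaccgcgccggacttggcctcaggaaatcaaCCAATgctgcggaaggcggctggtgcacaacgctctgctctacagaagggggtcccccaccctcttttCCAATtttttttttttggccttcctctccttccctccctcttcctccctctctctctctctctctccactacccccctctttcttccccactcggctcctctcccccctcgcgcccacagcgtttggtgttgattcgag
PGR: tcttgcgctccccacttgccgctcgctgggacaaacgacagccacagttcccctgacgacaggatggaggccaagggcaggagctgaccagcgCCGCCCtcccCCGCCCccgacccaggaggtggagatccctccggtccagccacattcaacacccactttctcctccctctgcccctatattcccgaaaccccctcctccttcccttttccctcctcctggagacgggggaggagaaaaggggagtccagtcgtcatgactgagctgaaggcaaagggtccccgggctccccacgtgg
TRPC6: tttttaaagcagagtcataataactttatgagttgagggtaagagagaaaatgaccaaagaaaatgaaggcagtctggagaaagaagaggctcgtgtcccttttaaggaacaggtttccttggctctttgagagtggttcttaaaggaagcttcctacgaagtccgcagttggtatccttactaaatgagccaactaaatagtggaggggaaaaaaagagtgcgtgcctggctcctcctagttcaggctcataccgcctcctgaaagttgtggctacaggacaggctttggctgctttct
The capitals are CCAAT boxes in TP63, ELF3 and PRRX1 and GC boxes in PGR, and TNS3 and TRPC6 held none of the 6 motifs. The shared region at PRRX1 begins downstream of the printed bases, and that at TRPC6 covers 121 of them. The other 4 promoters lie wholly inside their region. Of all 15100 promoters in the table, 36% held a CCAAT box, 58.9% a GC box, 14.4% an ETS, 11.7% a TEAD, 5.7% an AP-1 and 2.65% a CRE match.

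TP63 had a pileup of 32 in selected and 153 in ancestral cells, a ratio of −0.87. TNS3 had 91 and 385 (−0.69) and ELF3 259 and 1057 (−0.64). At the other end PRRX1 had 84 and 85 (1.37), PGR 74 and 80 (1.28) and TRPC6 42 and 49 (1.17). The high ratios thus belong to faint regions, whereas ELF3 is a strong one. On soft gel ELF3 kept its side (−0.88), as did TNS3 (−0.30), PRRX1 (1.47), PGR (0.73) and TRPC6 (0.83), but TP63, with 48 and 97, was level at 0.10.

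Most shared regions differed little between selected and ancestral cells on stiff gel. The ratio lay within 0.5 of 0 in 53592 regions (63.2%), with a median of 0.17 and quartiles of −0.15 and 0.59. Past 2-fold, 10560 regions were higher in selected cells (12.5%) and 1044 were lower (1.23%). The excess of higher calls depends on the scaling. With each list divided by its genome-wide background (12.6 in selected and 20.2 in ancestral cells), every ratio moved down by 0.71, and 12.2% of the calls were higher, against 91.0% with the scaling used here. With the ratio of regions of like strength subtracted the share was 64.1%, and with that of regions within 5 Mb subtracted 73.0%. Values for genes and groups are therefore read against the median of all regions. The 20 regions named below kept their direction, past 2-fold, under every scaling tried. The 2-fold threshold falls in a continuous range: 1054 regions lay up to 0.05 inside it and 1098 up to 0.05 outside on the higher side, and 185 and 245 on the lower side.

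The higher calls sat in faint regions. In the weakest of 10 equal groups by mean scaled pileup, with a median pileup of 36 in selected and 49 in ancestral cells, the median ratio was 0.95 and 3807 regions were higher against 0 lower. In the sixth group the median was 0.01, with 337 higher and 278 lower, and in the eighth it was −0.10, with 83 and 133. In the strongest group, with median pileups of 804 and 2002, it was 0.12, and 22 were higher and 5 lower. The lists reach down to different levels, to a scaled pileup of 0.243 in selected and 0.132 in ancestral cells, so a faint region could seldom be listed as 2-fold lower in selected cells. Where a 2-fold difference either way could have been listed, 5248 of 62914 regions were higher (8.34%) and 1035 lower (1.65%), with a median of 0.06.

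**Figure D1:**
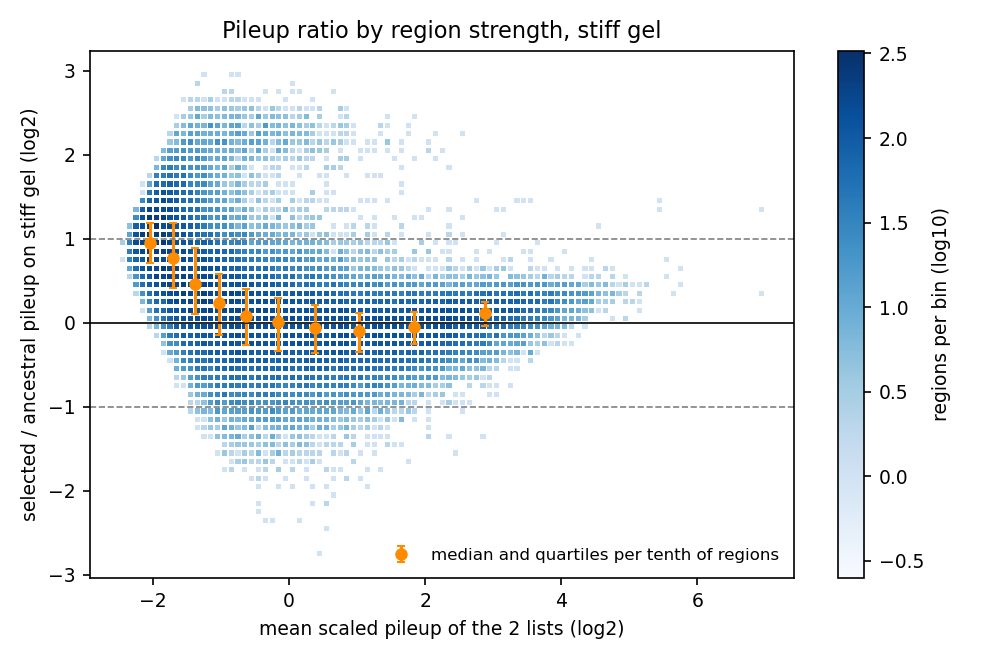
Ratio of selected to ancestral pileup on stiff gel (log2, vertical axis) against the mean scaled pileup of the 2 lists (log2, horizontal axis). Squares are bins coloured by the number of regions, orange points are the median and quartiles of 10 equal groups, and dashed lines are 2-fold. The medians run from 0.95 in the weakest group to −0.10 in the eighth and 0.12 in the strongest.

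The regions with the largest ratios were taken among regions above the median strength and outside the stretches in which a list skips a peak number. Upward, they lay near genes of varied function, and their raw pileup was larger in selected cells although the selected list is the shallower one. The largest ratio was at a region 193 kb from CDKN3, which encodes a phosphatase acting on cell cycle kinases (chr14:54202073-54204659), with a pileup of 301 in selected and 113 in ancestral cells, a ratio of 2.80. A region inside LRP2, the endocytic receptor megalin (chr2:169326254-169328400), had 222 and 85 (2.77), and one inside MAD1L1, a spindle checkpoint gene (chr7:1823604-1828556), had 255 and 98 (2.77). In F7, coagulation factor VII (chr13:113106731-113111366), the pileups were 442 and 171 (2.76). All 4 were also higher on soft gel, by 2.16, 2.03, 2.94 and 2.62.

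HYAL1, a hyaluronidase that degrades matrix hyaluronan, had an internal region (chr3:50310688-50312791) of 306 and 119 (2.75). A region 217 kb from DLL1, a Notch ligand (chr6:170064564-170066480), had 292 and 115 (2.73), and one inside ULK1, an autophagy kinase (chr12:131916845-131920161), had 259 and 108 (2.65). LMCD1, a LIM domain cofactor, had a region 61.5 kb away (chr3:8439832-8441049) of 335 and 142 (2.63). The remaining 2 lay in CHLSN (chr7:1037400-1040476; 474 and 206, 2.59) and 3.99 kb from TMEM239 (chr20:2823667-2825607; 197 and 86, 2.58). On soft gel HYAL1 stood at 2.66, DLL1 at 2.28, LMCD1 at 2.25, CHLSN at 2.34 and TMEM239 at 2.15. At ULK1 no peak of selected cells had its summit in the region on soft gel, so no ratio was formed.

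Downward, the ancestral peaks were strong and the ratios ran from −2.71 to −2.04. With this scaling, all but the lowest ratio were smaller in size than the 10 upward ones. That comparison depends on the scaling, since background scaling moves every ratio down by the same amount. A region inside SUN1, which encodes an inner nuclear membrane protein of the LINC complex that couples the nucleus to the cytoskeleton (chr7:816364-817754), had a pileup of 56 in selected and 958 in ancestral cells, a ratio of −2.71. On soft gel it had 45 and 857 (−3.13), and the other regions within 5 Mb had a median of 0.66, in the other direction. A region 6.20 kb from FBLN2, the matrix glycoprotein fibulin 2 (chr3:13643575-13645571), had 70 and 972 (−2.41), and 61 and 640 on soft gel (−2.27). A region 124 kb from TFAP2C, a transcription factor of luminal and trophoblast cells (chr20:56762349-56763395), had 38 and 507 (−2.35). A region in PPL, periplakin of the cornified envelope and desmosomes (chr16:4914918-4916091), had 64 and 769 (−2.20).

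The other lower regions were near AIPL1, a photoreceptor chaperone (chr17:6365224-6366731; 39 and 519, −2.35), and LOC128966717 (chr6:4223599-4225589; 52 and 676, −2.31). ZNF675, a zinc finger gene (chr19:23561389-23563454), had 38 and 449 (−2.17), and FHDC1, a formin that acts on actin and microtubules (chr4:152981097-152982476), had 74 and 872 (−2.17). CPEB4, a translational regulator (chr5:173822217-173823358), had 76 and 881 (−2.15), and PDP1, a pyruvate dehydrogenase phosphatase (chr8:93985382-93986512), had 80 and 861 (−2.04). All 8 lower regions with a ratio on soft gel were lower there too, from −3.13 at SUN1 to −1.44 at CPEB4. AIPL1 and ZNF675 had no selected peak with its summit there on soft gel, against ancestral pileups of 341 and 480. These choices leave out skipped stretches: with them, 9 of the 10 highest and 4 of the 10 lowest regions touch one.

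**Figure D2:**
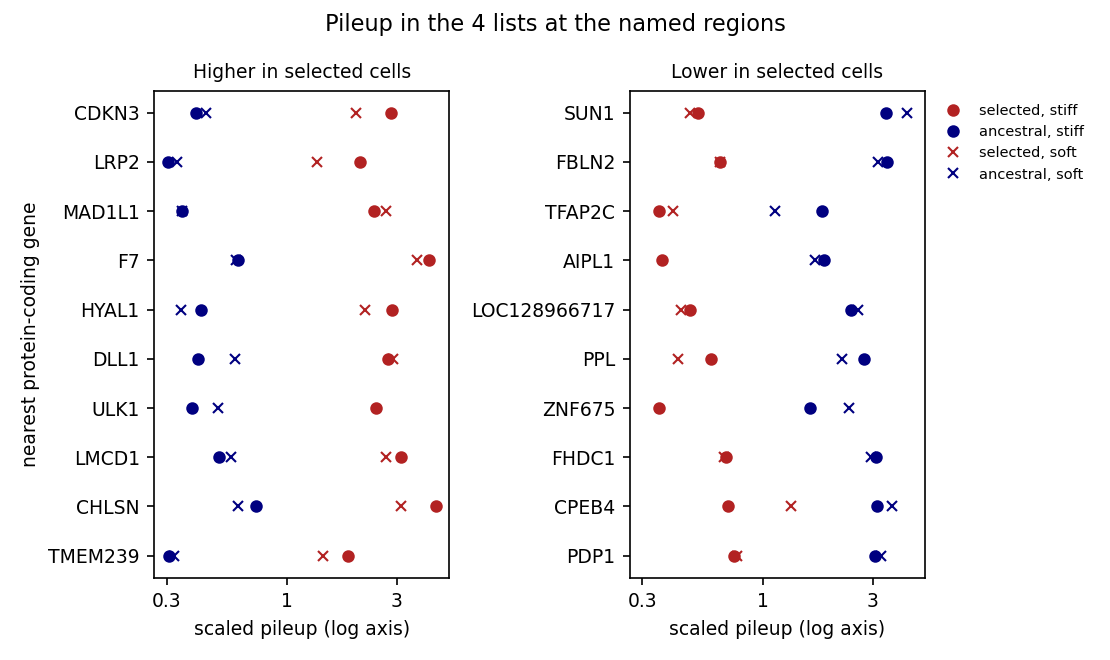
Scaled pileup (log axis) in each of the 4 peak lists at the 10 highest and 10 lowest regions, labelled by the nearest protein-coding gene. Circles are stiff gel, crosses soft gel, red selected and blue ancestral cells, and a missing cross means that no peak of that list had its summit in the region. The crosses lie beside the circles of the same colour, with the widest gap at CPEB4 among selected and at TFAP2C among ancestral values.

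With this scaling, some genes were shifted over many regions at once. Of 2617 genes with at least 8 shared regions within 100 kb, the median of the gene medians was 0.10, 127 had a median of 1 or more and 0 had one of −1 or less. A median below 0 was found in 941 of the 2617 genes. These counts depend on the scaling, since scaling by the background moves every gene median down by the same amount. EHMT1, a histone H3 lysine 9 methyltransferase, had the highest median, 1.64 over 17 regions, of which 13 were higher. It had 14 selected-only and 2 ancestral-only peaks besides. All genes together had 28960 selected-only and 15445 ancestral-only peaks, so an excess of selected-only peaks at a gene is partly that of the lists. GAK, a kinase of clathrin uncoating, stood at 1.51 with 10 of 12 regions higher, KIF26A, a kinesin family member, at 1.58 with 10 of 11, and COL18A1, whose collagen yields endostatin, at 1.43 with 13 of 19. MROH1 (1.58), PRKAR1B, a regulatory subunit of protein kinase A (1.53), RGS12 (1.51), ATAD3B (1.49), the neuropeptide gene GAL (1.48) and CHLSN (1.44) completed the highest 10. Their surroundings differed: the other regions within 5 Mb had a median of 0.92 around MROH1 and 0.82 around EHMT1, but 0.17 around COL18A1. The regions of these 10 genes were faint, with median ancestral pileups from 51 at KIF26A to 84 at ATAD3B, where the lowest listed was 37. With regions of like strength subtracted, the 10 medians ran from 0.56 at RGS12 to 0.99 at PRKAR1B. On soft gel they ran from 0.46 at CHLSN to 1.71 at EHMT1, with RGS12 at 0.94 and COL18A1 at 0.96.

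The genes with the lowest medians moved less with this scaling. With regions of like strength subtracted, the medians of the lowest 10 ran from −0.96 at KCNJ6 to −0.53 at NOTCH2NLA. CYP1B1, a cytochrome that oxidises oestrogens and aryl hydrocarbons, had 8 of 8 regions below 0, a median of −0.71 and 5 ancestral-only against 0 selected-only peaks. VEGFC, a growth factor of lymphatic vessels, had 10 of 10 regions below 0 with a median of −0.64, and PLEKHA5 9 of 9 with −0.63. RBM47, an RNA-binding protein, stood at −0.65 with 8 ancestral-only and 0 selected-only peaks, and DPF3, a subunit of the BAF chromatin remodeller, at −0.61 with 11 and 1. KCNJ6, a potassium channel gene, was lowest at −0.74, with regions from −1.94 to 0.97. MTHFD2L (−0.65), DCLK2 (−0.64), ZNRF1 (−0.63) and NOTCH2NLA (−0.63) followed. On soft gel all 10 were below 0, from −0.83 at RBM47 to −0.28 at KCNJ6. The other regions within 5 Mb also had medians below 0 around KCNJ6, CYP1B1, RBM47, MTHFD2L, DCLK2 and VEGFC, from −0.34 at MTHFD2L to −0.10 at KCNJ6, and medians above 0 around the other 4.

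Along the genome the ratio changed in long blocks. Of 22 autosomes, chromosome 4 was, with this scaling and all regions, the only one with a median below 0, at −0.09 with 340 regions higher and 117 lower (3.82%). Where a 2-fold difference either way could have been listed, 8 had one below 0 (2, 3, 4, 6, 13, 15, 18 and 21), and with background scaling all 22 did. Among the 22 medians, chromosome 19 had the highest, 0.40, with 977 higher (21.3%). Among 484 windows of 5 Mb with at least 50 regions, the lowest was 20 to 25 Mb of chromosome 4, with a median of −0.40 over 71 regions, 0 higher and 4 lower. The highest were 135 to 140 Mb of chromosome 8, at 0.99 over 50 regions, and 60 to 65 Mb of chromosome 20, at 0.96. Next came 130 to 135 Mb of chromosome 10, at 0.94. These lie near chromosome ends, but high windows also lay elsewhere, as at 15 to 20 Mb of chromosome 18 (0.79). The 48 highest windows held 36.3% of the higher calls and 15.9% of the regions. Across these windows the medians on stiff and on soft gel had a Pearson correlation of 0.94, a description over windows that share the depth and scaling of each list. DNA copy number was not assessed in either population, and its part in these blocks was not tested.

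Distance to genes separated the ratio less than strength did. Regions at gene starts, within 1 kb, were the strongest, with median pileups of 437 in selected and 1117 in ancestral cells, and had the fewest calls: 292 of 8693 higher (3.36%) and 18 lower (0.207%), with a median of 0.12. Inside genes 5955 of 36839 were higher (16.2%), with a median of 0.18. Outside genes the median was 0.21 within 10 kb, 0.09 from 10 to 100 kb and 0.35 beyond 100 kb. Lower calls were most frequent at 10 to 100 kb, at 328 of 16956 (1.93%), and beyond 100 kb, at 179 of 11394 (1.57%). The higher value far from genes went with faint peaks, at median pileups of 62 and 134. With regions of like strength subtracted, the medians were 0.07 at gene starts, −0.01 inside genes, 0.05 within 10 kb, −0.06 from 10 to 100 kb and −0.05 beyond. With regions split into 3 equal groups by strength, gene starts stood at 0.88, 0.06 and 0.11 and regions beyond 100 kb at 0.65, 0.10 and −0.15, from weak to strong. Regions beyond 100 kb were thus the higher ones in the middle group alone.

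**Figure D3:**
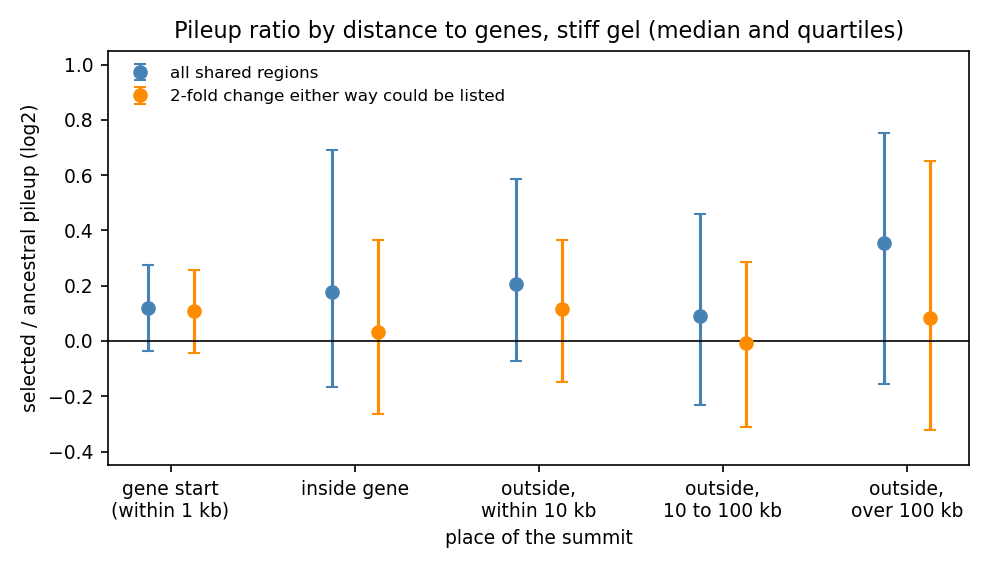
Median and quartiles of the log2 ratio of selected to ancestral pileup on stiff gel, by where the summit lies. Blue points are all shared regions and orange points those in which a 2-fold difference either way could have been listed. The blue median beyond 100 kb is 0.35 and the orange one 0.08.

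Genes were then grouped by role, in 21 lists with 404 of 414 members found, each region going to its nearest gene within 100 kb. Over all 72348 assigned regions, 9011 were higher, 856 were lower, and the median was 0.15 on stiff and 0.08 on soft gel. The quartiles on stiff gel were −0.15 and 0.53, so regions below 0 were common. Counts below 0 at single genes are to be read against this. The medians of 15 lists lay below that of all regions. Scaling by the background moves all of these medians down by the same 0.71, which leaves their order and their distance from all regions but turns positive signs, and counts above or below 0 at single genes, negative where they are smaller than that.

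Adhesion and matrix genes come first in the path from the substrate inward. Focal adhesion and integrin genes had 39 of 349 regions higher and 10 lower, with a median of 0.04. Single members ran in both directions: VAV2, a guanine nucleotide exchange factor, had 20 of 30 regions higher and a median of 1.33, and the kinase SRC 7 of 16 and 0.89. NEDD9, a docking protein of the Cas family, had 4 of 23 regions lower and 1 higher, with a median of −0.28, and ITGB3, the integrin beta 3 subunit, had a median of −0.49 over 7 regions. Extracellular matrix genes had 39 of 288 regions higher and 4 lower, with a median of −0.00. COL5A1, a fibrillar collagen, stood at 0.90 with 23 of 56 regions higher, COL6A1 at 1.39 over 5 regions, and FBN1, fibrillin of microfibrils, at −0.47 with 5 of 5 below 0. Matrix proteases and inhibitors had 6 of 94 higher, 1 lower and a median of 0.01. ADAM12, a membrane metalloprotease, had 15 of 18 regions below 0 (median −0.37).

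Mechanosensitive channel genes had the highest list median, 0.48 over 49 regions, with 11 higher and 0 lower. It was 0.07 once regions of like strength were subtracted. PIEZO1, a stretch-gated channel, had 8 of 8 regions above 0, 5 of them higher, with a median of 1.08 and 0.27 in the regions within 5 Mb. Actin cytoskeleton and SRF/MRTF target genes had 30 of 193 higher and 1 lower (median 0.16), close to the 12.5% higher over all regions. In that list TPM4, a tropomyosin, stood at 0.89 over 8 regions and ACTN1, alpha-actinin, at 0.55 over 20. CDC42EP3, an effector of Cdc42, had 14 of 16 regions below 0, a median of −0.40 and 10 ancestral-only against 0 selected-only peaks. Nuclear envelope and LINC complex genes had 9 of 82 higher and 1 lower (median 0.12).

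YAP/TAZ-TEAD target genes had 19 of 314 regions higher (6.05%) and 4 lower, with a median of −0.08, which was 0.23 under that of all regions. Their soft-gel median was −0.09, and relative to regions of like strength it was −0.18 on stiff gel. CRIM1, a regulator of growth factor signals, had 12 of 15 regions below 0 (median −0.29), whereas ARHGEF17, a guanine nucleotide exchange factor, had 6 of 12 higher (0.86). Hippo pathway and TEAD genes had 6 of 132 higher and 2 lower (0.03), with YAP1 itself below 0 in 11 of 16 regions and WWTR1, which encodes TAZ, in 11 of 13. AP-1 family genes had 3 of 56 higher and 0 lower (0.02). FOSL2 in that list stood at −0.39 over 8 regions.

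Mesenchymal and EMT genes had 4 of 148 regions higher and 6 lower, a median of −0.10. N-cadherin, CDH2, was below 0 in 13 of 13 regions, 3 of them lower, with a median of −0.55 on stiff and −0.64 on soft gel, while the regions within 5 Mb had a median of 0.00. The hyaluronan receptor CD44 was below 0 in 10 of 10 regions (−0.34). NF-kB and inflammatory cytokine genes had the lowest list median, −0.17 over 90 regions with 1 higher and 1 lower, and IL6 was below 0 in 9 of 9 regions (−0.29). Interferon response genes had a median of −0.01 with 1 of 56 higher, and their regulator IRF1 was below 0 in 9 of 9 regions (−0.27). Epithelial genes had 9 of 118 higher and 0 lower (0.01), with TJP1, the tight junction protein ZO-1, below 0 in 10 of 12 (−0.43). Luminal markers (3 of 42 higher, 2 lower, 0.12) and basal markers (8 of 77 higher, 0 lower, 0.15) stood near all regions.

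Sterol synthesis genes had 24 of 101 regions higher and 0 lower, with a median of 0.34, or 0.07 relative to regions of like strength. DHCR7, which makes the last step to cholesterol, had 6 of 11 higher (1.03), and INSIG1, which holds back SREBP, 10 of 31 (0.87), in surroundings with a median of 0.71. Hypoxia and glycolysis genes had 27 of 180 higher and 1 lower (0.10). There the stress gene NDRG1 stood at 0.96 over 13 regions and EGLN3, a prolyl hydroxylase that marks HIF for breakdown, at −0.72 over 7. Cell cycle genes had 8 of 83 higher and 1 lower (0.08), with CDK6 below 0 in 16 of 19 regions (−0.33), and ribosomal protein genes had 3 of 51 higher and 2 lower (0.14). Markers of other cell types were above all regions in median: blood markers at 0.21 with 15 of 71 higher, and neuron markers at 0.35 with 18 of 76 higher, both with 0 lower. RBFOX3, a neuronal splicing factor, held 14 of those 18, and relative to regions of like strength the lists stood at −0.01 and 0.05.

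**Figure D4:**
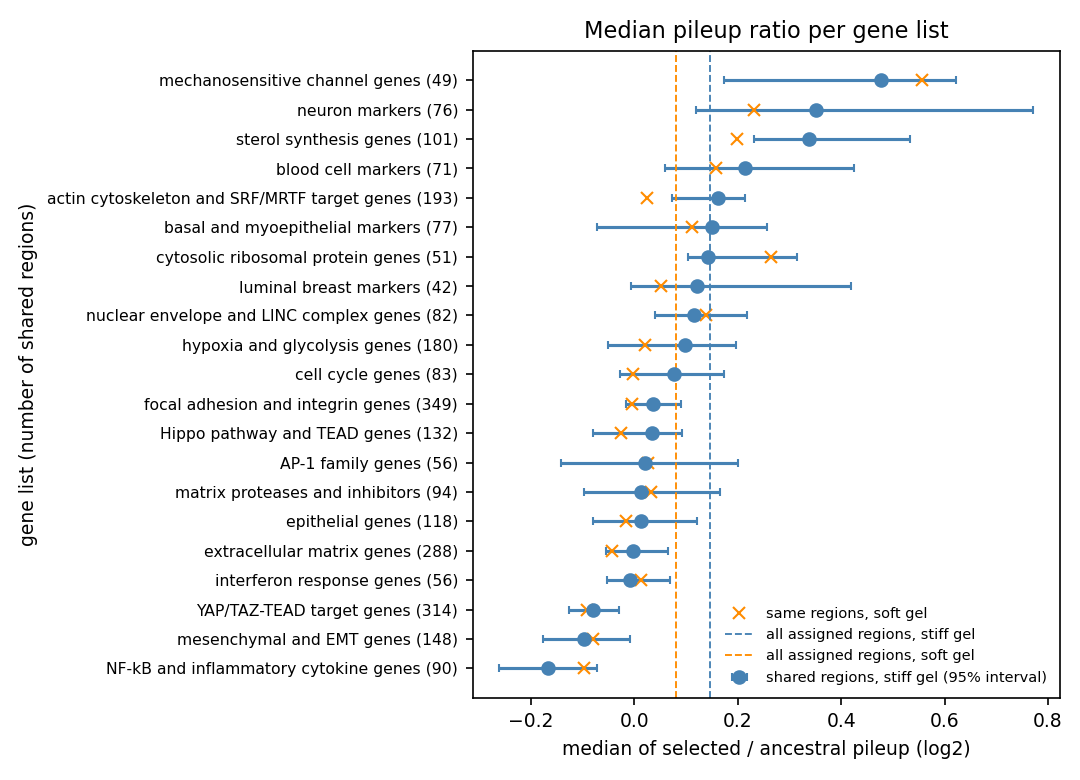
Median log2 ratio of selected to ancestral pileup over the shared regions of each gene list on stiff gel (blue, with 95% intervals over regions) and on soft gel (orange crosses), and over all assigned regions (dashed lines). The lists run from NF-kB and inflammatory cytokine genes at −0.17 to mechanosensitive channel genes at 0.48.

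At gene starts almost no list member differed 2-fold. Of 414 members, 250 had a shared region within 1 kb of their start, of which 8 were higher (3.2%) and 1 was lower (0.4%). Over all 8563 such gene-start regions clear of skipped numbers, 283 were higher (3.3%) and 15 lower (0.175%), so the members are near the background. For genes without an entry in the start table, either end of the gene was used, so such a peak need not lie at the start. Among the genes named below this holds for OVOL1, TRPV4, LIF, TFF1, MX2, VEGFA, DOCK5 and GADD45A, and for others. The 8 higher starts were all faint, with pileups of 36 to 84 in selected and 47 to 85 in ancestral cells. Besides PRRX1, PGR and TRPC6 they were OVOL1, an epithelial repressor (56 and 50, 1.55), TRPV4, an osmosensitive channel (45 and 49, 1.26), LIF, a cytokine (44 and 51, 1.17), BATF2, an AP-1 family member (47 and 55, 1.16), and CA9, a hypoxia-induced carbonic anhydrase (36 and 47, 1.00). Of the 6 with a value on soft gel, 3 were past 2-fold there. With background scaling no start of the 8 stayed past 2-fold.

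The 1 lower start was at TFF1, the oestrogen-induced trefoil factor of luminal cells, either end of which was searched. It had 160 in selected and 1023 in ancestral cells, a ratio of −1.29, and 117 and 836 on soft gel (−1.72). Apart from TFF1 and the 8 higher ones, the shared starts of list members stayed within 2-fold with this scaling. Background scaling, which lowers every ratio by 0.71, takes some of them past 2-fold lower, among them MX2, CXCL2, TRPM7, ROCK2 and VEGFA. MX2, an interferon-induced antiviral GTPase, had 324 and 1534 (−0.86; −0.79 on soft gel), and CXCL2, a neutrophil chemokine, 448 and 1795 (−0.61; −0.73). TRPM7, a channel kinase, had 266 and 1042 (−0.58), ROCK2, a kinase that raises actomyosin tension, 263 and 1003 (−0.54) and VEGFA 76 and 288 (−0.53). In these genes the ancestral list was the higher one, and the soft-gel ratio was also below 0 at MX2, CXCL2 and ROCK2 (−0.52), while TRPM7 stood at 0.05 there.

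Among YAP/TAZ targets, DOCK5 (132 and 509, −0.56), PTPN14 (451 and 1653, −0.49), TGFB2 (344 and 1233, −0.45) and ANKRD1 (530 and 1668, −0.27) were below 0. CCN2, a matricellular growth factor (848 and 1727, 0.36), and GADD45A (1400 and 2793, 0.39) were above. Starts at other genes above 0 included the NF-kB list's TNFAIP2 (224 and 340, 0.79) and IL11 (244 and 396, 0.69), and FN1, fibronectin (429 and 787, 0.51). VIM was even, at 1427 and 3646 (0.03). HIF1A, the oxygen-regulated transcription factor, stood at 0.40 on stiff gel (1539 and 3045) and at −0.40 on soft gel (771 and 2209), a difference that was not tested.

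Some starts were listed in 1 group only, with low pileup. Of the 280 members with a peak at the start, counting 7 whose partner had its summit elsewhere as shared, 17 had it in selected cells alone (6.07%) and 6 in ancestral cells alone (2.14%). Over all 13133 protein-coding genes with such a peak the shares were 6.64% (872) and 1.69% (222), so the members are near the background. The selected-only starts included the matrix collagenase MMP1 (46), ADAM12 (50), ITGA11 (42), CDH2 (39), the EMT factor FOXC2 (54) and the laminin LAMA1 (53). The 6 ancestral-only starts were the integrin ITGB5 (99), MMP7 (88), BATF (84), WNT5A (53), the keratin KRT5 (51) and RUNX3 (47). CDH2 and ADAM12 thus had a start peak in selected cells alone while most of their shared regions had ratios below 0. At 66 of 414 members the start lay at a skipped number and was left undetermined, against 1173 of 19122 protein-coding genes. Among them were 12 of 25 ribosomal protein genes and 9 of 15 AP-1 family genes. The comparisons of members with the background leave these starts out.

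The share of promoters with a motif varied along the range of ratios. Over 8492 promoters with a shared start region, split into 5 equal groups by ratio, a CCAAT box was present in 28.5% of the lowest, then 34.3%, 36.1%, 42.5% and 41.3% of the highest. An ETS match was present in 17.9%, 23.3%, 20.9%, 22.1% and 12.7%, and an AP-1 match in 5.89% of the lowest and 3.65% of the highest. The groups also differed in strength, with a median mean scaled pileup of 2.67, 3.97, 4.84, 6.28 and 3.08, and its part in these shares was not tested. Among the 261 promoters past 2-fold higher, 3.45% held an ETS match, 25.3% a CCAAT box and 55.6% a GC box, against 19.4%, 36.5% and 72.2% of the 8492. These 261 were faint, with a median mean scaled pileup of 0.316 against 4.07, and here too the part of strength was not tested.

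The same populations on soft gel gave a second comparison that shares no peak list with the first. Of 70318 regions present in all 4 lists, 6377 were higher on stiff gel, and 5075 of them (79.6%) were higher on soft gel too, against 10.9% of all these regions. Those 5075 made up 66.3% of the 7659 higher on soft gel. Of 890 lower on stiff gel, 481 (54.0%) were lower on soft gel, against a background of 1.88%, and they made up 36.5% of the 1319 lower there. Regions past 2-fold in opposite directions on the 2 gels numbered 1, and 0 once regions at skipped numbers were left out. The ratios had a Pearson correlation of 0.84 and a Spearman correlation of 0.79 across regions, which share the depth and scaling of each list and are not independent. The selected lists are also the shallower ones on both gels, with genome-wide backgrounds of 13.5 and 12.6 against 16.3 and 20.2, and the part of depth in this likeness was not tested.

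**Figure D5:**
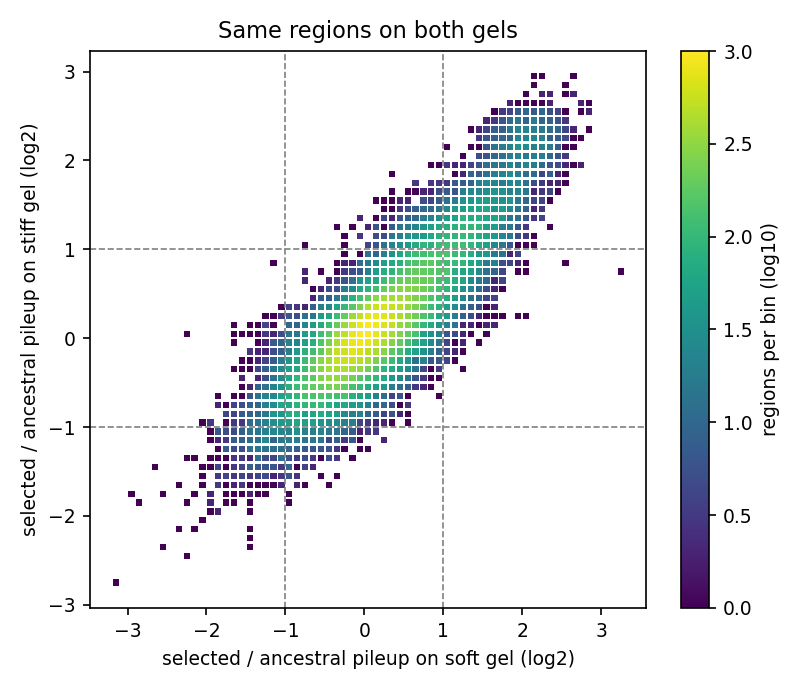
Log2 ratio of selected to ancestral pileup on stiff gel (vertical axis) against soft gel (horizontal axis) for the 70318 regions present in all 4 lists. Squares are bins coloured by the number of regions and dashed lines are 2-fold. The cloud follows the diagonal, with a Pearson correlation of 0.84.

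Peaks listed in 1 group only were counted outside the stretches where the other list skips a number. In selected cells 31385 of 120833 peaks (26.0%; exact Clopper-Pearson 95% interval 25.7% to 26.2%) had no ancestral partner, and in ancestral cells 20997 of 113458 (18.5%; 18.3% to 18.7%) had no selected partner. Both kinds were weak, with a median pileup of 34 in selected-only and 67 in ancestral-only peaks. A −log10 q-value of at least 10 was reached by 12.9% of the selected-only and 66.1% of the ancestral-only peaks. The lists reached down to different levels: 29236 selected-only peaks (93.2%) exceeded 2 times the lowest scaled pileup of the ancestral list, whereas 1556 ancestral-only peaks (7.41%) exceeded 2 times that of the selected list. On soft gel, 60.3% of the selected-only and 40.5% of the ancestral-only peaks were again found in that population alone, and 2.15% and 7.54% in the other alone. The same shares over all peaks of each list were not worked out. The soft-gel lists also reach down to different levels, to a scaled pileup of 0.290 in selected and 0.153 in ancestral cells. The part of this in the shares was not tested.

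The strongest selected-only peak lay inside PCBD2 (chr5:134926808-134927388, pileup 632), a tetrahydrobiopterin recycling gene, and was matched on soft gel in both populations, at 651 in selected and 644 in ancestral cells. Peaks near SLCO3A1, an organic anion transporter (297), near ANKRD46 (264) and in RGPD2 (254) had partners of 389, 286 and 268 in selected cells on soft gel and none in ancestral cells. CDH4, R-cadherin (190), and a site 56.4 kb from FOXI2 (195) did likewise at 235 and 191. Peaks in ANKRD28 (215) and RIN2, a Rab5 exchange factor (192), were in no soft-gel list. Those near DLL1 (246) and in the potassium channel subunit gene DPP6 (196) had ancestral partners on soft gel, at 153 and 325.

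Among ancestral-only peaks the strongest was 338 kb away from MKI67 (chr10:128464363-128464634), with a pileup of 1044 over 272 bp, and overlapped no peak in any other list. The next 9 were present in ancestral cells on soft gel as well. They were near MBOAT2, a lysophospholipid acyltransferase (497 on stiff and 406 on soft gel), in SHROOM3, which drives apical constriction (475 and 338), in UBE2U (472 and 252) and in DAPK2, a death-associated kinase (434 and 516). Peaks in SYN3 (394), near PRDM1, the repressor Blimp-1 (388), in the bradykinin receptor gene BDKRB2 (374), near the chemokine scavenger ACKR3 (374) and near DACT2, a Wnt antagonist (372), completed the 10. Of these, MBOAT2 and DAPK2 also had a faint partner in selected cells on soft gel, at 123 and 70.

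Selected-only and ancestral-only peaks lay in different places. Selected-only peaks were inside genes in 59% and beyond 100 kb in 7.73% of cases, and ancestral-only peaks in 40.9% and 26.4%, while the whole lists had 47.7% and 44.5% inside genes and 12.2% and 15.2% beyond 100 kb. On chromosome 4 there were 743 selected-only and 1376 ancestral-only peaks, and on chromosome 13 there were 235 and 522. On chromosome 19 the numbers were 2357 and 507, on chromosome 20 2148 and 518, and on chromosome 17 2154 and 686. Chromosome 4, with more ancestral-only peaks, had the lowest median ratio of shared regions and chromosome 19, with more selected-only peaks, the highest. Chromosome 13, with more ancestral-only peaks, had a median ratio of 0.03, above 0.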

How the data were processed

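ATAC-seq was done on 4 samples per group. Per the submitters' processing notes, the tools were MACS2 (2.2.7.1) and Bowtie2 (2.4.5), with Trimmomatic (0.36), FastQC (0.11.4) and MultiQC (1.1), on GRCh38. The authors deposited 1 peak table for each group, with no statement in the sources used here on how its libraries were combined. Its columns, per the file headers, give position, summit, the pileup signal there, −log10 p-value (not used), −log10 q-value, fold enrichment and a name ending in a number. The deposited pileup signal is a whole number, unscaled for depth. From the deposited fold enrichment the background of a list was worked out, and the deposited −log10 q-value served only as a threshold of 10. Nothing says whether samples came from separate cultures.

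Skipped numbers in the names mark stretches where a peak may be missing, all longer than the widest listed peak. Regions touching them were left out of named regions, gene starts and list-only counts. Connected overlaps of at least 1 bp formed regions, with the highest pileup of each list. Ratios on soft gel for named regions, genes and gene lists used soft-gel peaks whose summit lay inside the region. Genes came from a GRCh38.p14 table of 19122 protein-coding genes, with starts for 15100.

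The rule for named items took, per direction, the 10 largest ratios among regions of at least median strength, the 10 genes with the largest medians among those with at least 8 regions, the extreme gene start of each list and every start past 2-fold, the 10 strongest list-only peaks, and 3 promoters. Other list members were named after their values were seen. The regions, gene lists and alternatives were chosen with earlier results of these data known. Medians carry binomial 95% intervals over regions, which are not replicates. Versions were numpy 2.4.6, scipy 1.17.1 and pandas 2.3.3 under python 3.11.15. The steps were tested on a scaled copy of the ancestral list with changes planted in peaks above its faint range. That test does not cover faint regions.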

Additional observations from a re-analysis of the deposited data

How the results depend on the processing

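No paired analysis was possible because each group is 1 pooled peak list, so replicates could be neither matched nor left out. With 10560 regions higher, the count was 1924 when lists were scaled by the genome-wide background, 6827 with summits within 250 bp, 3967 with −log10 q of at least 10 in each list, 2806 with the median of like strength subtracted and 5314 with the median of regions within 5 Mb subtracted. With 1044 lower, it was 13848, 1574 and 1963 under the background, strength and position settings, and 1912 with background subtracted before scaling. The difference between regions beyond 100 kb and gene starts, 0.23, was 0.158 with background subtracted, 0.195 with exactly 1 peak in each list, 0.163 with summits within 250 bp, 0.074 with the q-value threshold and 0.018 with position subtracted, and reversed to −0.12 with strength subtracted. The share of higher regions also higher on soft gel, 79.6%, was 64.3% with background scaling, 76% with 1 peak, 73.4% with near summits, 71.5% with the q-value threshold and 75.8% with strength subtracted. For lower regions, 54% became 78.1% with background scaling, 50.2% with background subtracted, 58% with the q-value threshold and 41.8% with strength subtracted. Selected-only peaks numbered 4040 with the q-value threshold on their own side and 7702 with it in both lists, and ancestral-only peaks 13885 and 22861, so that ancestral-only peaks were the more numerous with either threshold, the reverse of 31385 selected-only against 20997. Of the settings added after the data were seen, restriction to regions where a 2-fold change either way could be listed gave 5248 higher, a distance difference of −0.027 and 86.3% also higher on soft gel. Fewer regions were tested by this and the q-value setting, and the share of regions higher also fell, from 12.5% to 8.34% and 6.03%. The cause of these and the other shifts was not tested.

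All 213 values of the 20 named regions under the alternatives kept their direction past 2-fold. Of 252 values for the 21 gene lists 8 moved beyond their interval, and of 220 for the named genes 38 dropped under 2-fold and 10 newly passed it. Of 451 for the named gene starts, 18 dropped under 2-fold, 18 newly passed it and 26 moved otherwise. The number of lists below the median of all regions, 15, ranged from 13 to 16. Pileup depth limits the comparison: the lowest listed pileups were 26 in selected and 37 in ancestral cells.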

Other observations

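A group of 1044 shared regions clear of skipped numbers was at least 4-fold higher in selected cells on stiff gel (1.25%), and it was noticed after the values were seen. In regions above the weakest 30%, the number of regions per 0.2 of log2 ratio first went down from 477 (1.0 to 1.2) to 111 (1.6 to 1.8), then up to 289 (2.2 to 2.4), and down to 23 (2.6 to 2.8). These regions were near 934 genes and lay inside genes in 55.2% of cases and at gene starts in 2.68%. Regions 2-fold to 4-fold higher were much alike in this, at 56.3% and 2.78%, and regions within 2-fold stood at 41.6% and 11.4%. From 10 to 100 kb outside genes lay 25% of the group against 15.8% of regions 2-fold to 4-fold higher, and beyond 100 kb 5.84% against 12.5%. PTPRN2, a receptor-type phosphatase of secretory granules, had 7 of its 80 regions in the group, between 2.06 and 2.45. INPP5A, an inositol phosphatase, had 4 of 29, and the cadherin gene CDH4 3 of 65.

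The group differed from the regions 2-fold to 4-fold higher in several measures. The median pileup was 133 in selected and 71 in ancestral cells, against 50 and 52. These pileups also define the group, so a larger selected pileup follows at least in part from the 4-fold cut. The median distance between the summits of the 2 lists was 45 bp against 152 bp, and the part of peak strength in this was not tested. The median of the other regions within 5 Mb was 0.19 against 0.31. Of the 834 with a value on soft gel, 476 (57.1%) were at least 4-fold and 833 (99.9%) at least 2-fold higher there, with a median of 2.05. Among regions 2-fold to 4-fold higher on stiff gel, these shares were 4.75% and 76.8%, with a median of 1.32. Among regions within 2-fold they were 0.0129% and 3.82%. What sets this group apart was not tested.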
